A study of Mus musculus with 2 samples.

Results

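The genes described here keep the endoplasmic reticulum (ER) able to fold proteins, or answer when it cannot. They are 35 mouse genes chosen by symbol, with earlier results of these data known. All 35 were listed and counted in both libraries, out of 29373 symbols found in either library. By role they comprise 10 chaperones and co-chaperones, 7 genes of disulphide formation, 2 of the translocon, 8 of ER-associated degradation, 3 stress sensors and 5 effectors of those sensors. The chaperones and the disulphide genes are called folding members below (17 genes), and the sensors and effectors are kept apart from them (8 genes). A member was counted in a comparison where its level reached 20 CPM in at least 1 library. CPM is the gene's count over all cells of a class in a library, scaled to a class total of 1000000 counts. In granulosa-like cells 34 of 35 reached it and Trib3 did not.

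Secreted and membrane proteins enter the ER through the Sec61 channel, are held by chaperones such as BiP (Hspa5) and gain their disulphide bonds from protein disulphide isomerases. Misfolded proteins are drawn back out and degraded. When folding falls behind, the sensors IRE1 (Ern1), PERK (Eif2ak3) and ATF6 start the unfolded protein response, in which spliced XBP1 and ATF6 raise chaperone genes and PERK, through ATF4, raises Ddit3 (CHOP), Trib3 and Ppp1r15a (GADD34). Granulosa cells, which surround the oocyte, secrete inhibins, activins and other glycoproteins, while theca cells outside them make androgens.

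Single ovarian cells were sequenced in 2 libraries with BD Rhapsody bead capture. The PS-MP library came from female ICR mice, an outbred stock, that received polystyrene particles 0.1 µm across, 1 mg a mouse each day in a volume of 100 µL, by gavage over 35 days from 3 weeks of age, and the control library from female ICR mice of the same ages given water (ddH2O). Mice were 8 weeks old at collection. The labels state 16 mice without saying whether per group or in all, and tie no cell to a mouse. Since each group is 1 library, differences could not be tested and hold no spread between mice. Unless 2 cell types are compared within the PS-MP library, every ratio below is PS-MP over control, and each interval is an exact conditional binomial 95% interval that covers counting error only.

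The PS-MP library held 15056 cells and 145474989 counts and the control library 15373 cells and 160257194 counts. After filtering, 14412 PS-MP cells and 14538 control cells were kept, with medians of 8643 and 9502.5 counts per cell. The libraries shared 3 barcode numbers. Cell types were rebuilt from marker genes with the 35 members kept out of the genes used for clustering, which gave 19 clusters. The 7 granulosa-like clusters held 9122 PS-MP and 10244 control cells, the theca-like cluster (led by Cyp17a1) 534 and 528, the stromal fibroblast-like cluster 1756 and 1967, the macrophage or monocyte-like cluster 351 and 740 and the blood endothelial-like cluster 312 and 350. A luteal-like cluster led by Edn2 (cluster 6) stood apart: it held 1906 PS-MP cells and 9 control cells, so it has no control counterpart and is not part of the granulosa-like class. Granulosa-like clusters 1, 3, 5 and 8 had no granulosa marker among their 10 leading genes. With cluster 1 left out, the class gave the same counts of members at least 1.2-fold apart and a median log2 ratio of 0.17.

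The promoters of several folding members carry the letters of the ER stress response element, ERSE, which ATF6 and XBP1 are known to bind together with the CCAAT-binding factor NF-Y. In RefSeq promoters of the mouse build GRCm38.p6 (250 bases before to 50 after the start), 30 of 35 members had an entry, and Atf6, Derl1, Hyou1, Manf and Sec61a1 had none. The ERSE letters, CCAAT followed by 9 bases of any kind and CCACG, searched on both strands, were found in 9 of 30 members (30%), against 37 of 27025 genes (0.137%). ERSE-II, ATTGG followed by 1 base and CCACG, was found in Dnajb11 and Herpud1, that is in 6.67% of members and 0.0444% of all genes. The UPRE letters TGACGTGG were found in Txndc5 (3.33% of members, 0.714% of all genes). The CARE letters, TGATG followed by 1 base and AAT, were found in 0 of 30 members and in 1.08% of all genes. A match describes these letters in this window only. The matching windows are shown because they are a sequence feature that 11 members share; each is written 5′ to 3′ on the gene's coding strand, with the motif in capitals, so that a motif on the other strand reads as CGTGG, 9 bases and ATTGG.
Hspa5, chr2:34772010-34772058, plus strand: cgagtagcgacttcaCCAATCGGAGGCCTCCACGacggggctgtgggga
Hsp90b1, chr10:86705623-86705671, minus strand: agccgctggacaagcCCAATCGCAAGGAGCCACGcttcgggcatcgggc
Hsp90b1, chr10:86705518-86705566, minus strand: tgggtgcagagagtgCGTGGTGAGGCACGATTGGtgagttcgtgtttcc
Calr, chr8:84847060-84847108, minus strand: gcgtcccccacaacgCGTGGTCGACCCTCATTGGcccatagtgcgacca
Canx, chr11:50325785-50325833, minus strand: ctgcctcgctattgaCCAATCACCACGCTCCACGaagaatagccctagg
Dnajc3, chr14:118937812-118937860, plus strand: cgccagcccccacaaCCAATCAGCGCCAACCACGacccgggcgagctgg
Pdia6, chr12:17266476-17266524, plus strand: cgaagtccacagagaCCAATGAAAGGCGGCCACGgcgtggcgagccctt
Creld2, chr15:88819505-88819553, plus strand: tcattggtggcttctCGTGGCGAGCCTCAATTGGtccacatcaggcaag
Derl3, chr10:75893227-75893275, plus strand: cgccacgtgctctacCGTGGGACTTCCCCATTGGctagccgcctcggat
Syvn1, chr19:6046517-6046565, plus strand: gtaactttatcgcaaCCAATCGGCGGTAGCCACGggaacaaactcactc
Dnajb11 (ERSE-II), chr16:22857837-22857877, plus strand: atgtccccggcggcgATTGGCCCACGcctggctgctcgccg
Herpud1 (ERSE-II), chr8:94386362-94386402, plus strand: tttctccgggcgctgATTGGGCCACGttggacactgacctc

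Summed over the granulosa-like class, most folding members had higher levels in the PS-MP library and the 3 sensors did not, though not in the same way in each cluster. Among 34 measured members 5 stood 1.2-fold or more above control in PS-MP cells, where 1.33% of the 7350 genes measured were, and 0 were at least 1.2-fold lower, where 4.31% of genes were. The 5 were Sdf2l1, Creld2, Manf, Hyou1 and Pdia4, all folding members. Because the members were chosen with earlier results of these data known, the shares of members and of all genes here are description and no test. The median log2 ratio was 0.17 over the 17 folding members, -0.06 over the 7 measured sensors and effectors, and -0.02 over all genes measured. In cluster 4 of the class 7 of 7 measured sensors and effectors were above 1 (median 0.12, against 0.15 for the folding members), and in cluster 3, 5 of 6 were (median 0.12, against 0.13). In the other 5 clusters their median ran from -0.18 to -0.0046. No sensor had an interval wholly above 1 in any cluster, and Atf6 stood at 1.01 in cluster 4. In cluster 3 Atf6 was below 1, as was Eif2ak3 (ratio 0.796), which was under 20 CPM and not among the 6. Counting intervals lay wholly above 1 for 27 of 34 members (79.4%), against 26.4% of all genes, and wholly below 1 for 4 members (11.8%), against 37.1% of all genes. These intervals are narrow because 88527701 PS-MP and 110097231 control counts stand behind the class.

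Summed over the class, the 17 folding members made 11888 CPM in PS-MP granulosa-like cells and 10542 CPM in control granulosa-like cells, a ratio of 1.13 (1.12 to 1.13). The 3 sensors together made 132 CPM in PS-MP and 140 CPM in control granulosa-like cells (ratio 0.938, 0.916 to 0.961), and the 5 effectors 663 and 649 CPM (ratio 1.02). The share of a cell's counts from folding members was 0.524%, 1.09% and 1.79% at the 10th, 50th and 90th percentile of PS-MP cells. At the same percentiles of control cells it was 0.484%, 0.980% and 1.58%. These percentiles mix clusters of unlike folding level and size, so they do not show whether all cells share the gap. In cluster 8 the medians were 0.748% in PS-MP and 0.756% in control cells. In cluster 1 the 10th percentiles were 0.510% in PS-MP and 0.513% in control cells. With every cell of the class thinned to 3500 counts, the medians were 1.09% in PS-MP and 0.971% in control cells. Thinning leaves a cell's expected share as it was, so it could not show whether depth had a part in the gap.

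**Figure D1:**
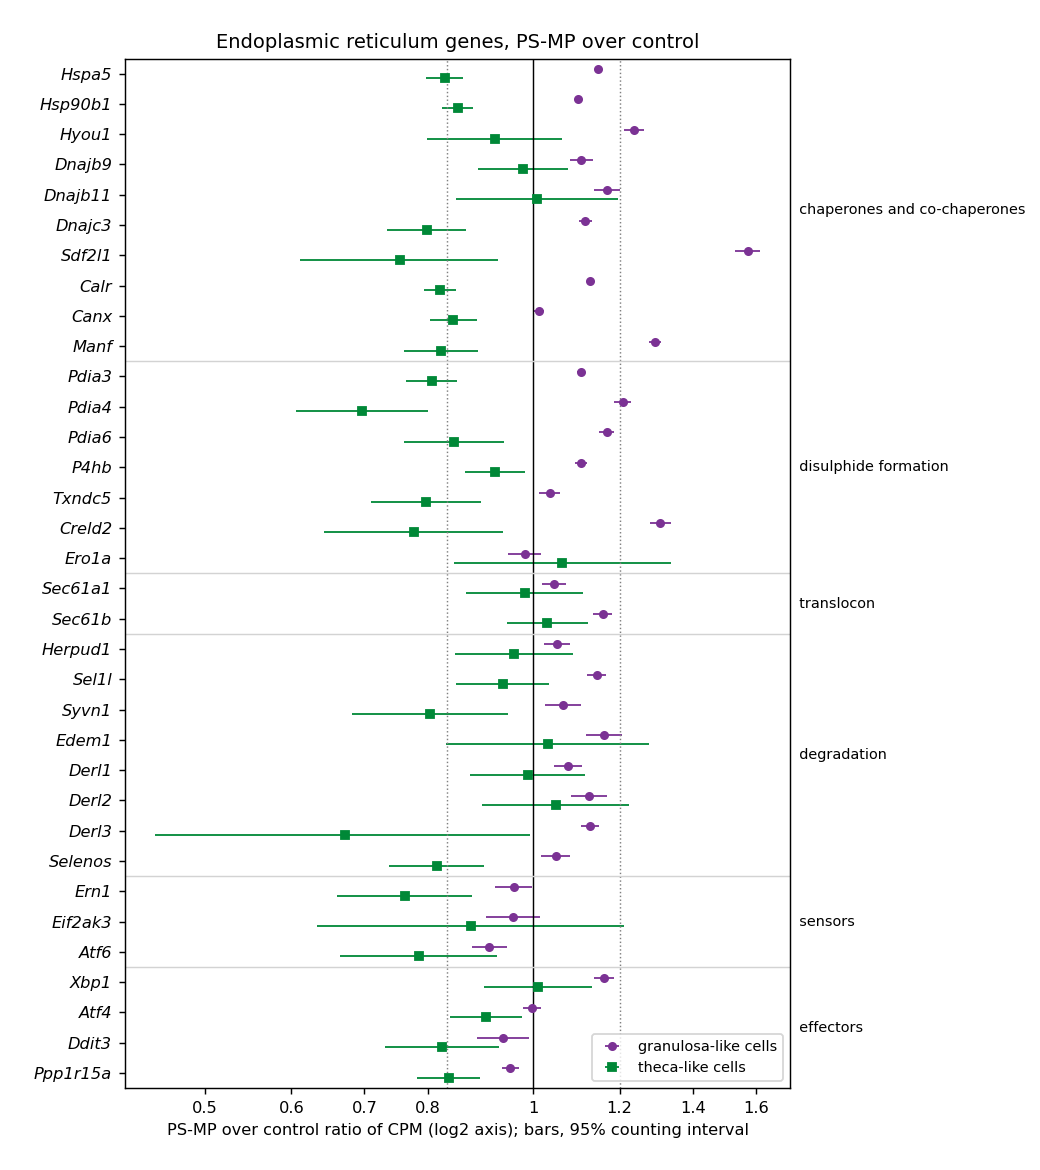
PS-MP over control ratio of each member (log2 axis) in granulosa-like and theca-like cells, grouped by role, with bars for the exact 95% counting interval; 1 library stands behind each group. In granulosa-like cells Sdf2l1 reached 1.57 and the 3 sensors sat below 1, while in theca-like cells 26 of 32 measured members sat below 1 (57.1% of genes did). Trib3 is left out; Eif2ak3 and Derl3, under 20 CPM in theca-like cells, are drawn but not among the 32.

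Among the chaperones, Sdf2l1, which helps Hspa5 hold its clients, was furthest from 1, with 143 CPM in PS-MP and 90.8 CPM in control granulosa-like cells (ratio 1.57, 1.53 to 1.61). It ranked 2 of the 7350 genes measured there. Manf, a secreted factor that binds Hspa5 and is released under ER stress, had 552 CPM in PS-MP and 427 CPM in control cells (ratio 1.29, 1.28 to 1.31). Hyou1, which exchanges the nucleotide of Hspa5, had 202 CPM in PS-MP and 163 CPM in control cells (ratio 1.24, 1.21 to 1.26). Dnajb11, a J-domain co-chaperone of Hspa5, had 113 CPM in PS-MP and 96.7 CPM in control cells (ratio 1.17).

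Hspa5 itself differed less in proportion, with 2417 CPM in PS-MP and 2108 CPM in control granulosa-like cells (ratio 1.15, 1.14 to 1.15). Hsp90b1 (GRP94), which folds a narrower set of clients, had 2765 CPM in PS-MP and 2518 CPM in control cells (ratio 1.10). Calr, the soluble lectin chaperone that holds glycoproteins, had 1702 CPM in PS-MP and 1510 CPM in control cells (ratio 1.13). Its membrane-bound partner Canx was near 1, with 764 and 755 CPM (ratio 1.01). The J-domain proteins Dnajc3 (ratio 1.12) and Dnajb9 (ratio 1.11), which act on Hspa5, lay between, so all 10 chaperones and co-chaperones had ratios above 1.

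Of the 7 disulphide genes 6 had ratios above 1. Creld2, an ER stress protein with isomerase activity, had 172 CPM in PS-MP and 132 CPM in control granulosa-like cells (ratio 1.31, 1.28 to 1.34), and Pdia4, a protein disulphide isomerase, had 270 CPM in PS-MP and 223 CPM in control cells (ratio 1.21, 1.19 to 1.23). The isomerases Pdia6, Pdia3, P4hb and Txndc5 had ratios of 1.17, 1.11, 1.11 and 1.03. Ero1a, the oxidase that recharges them, was the exception, with 66.8 CPM in PS-MP and 68.1 CPM in control cells (ratio 0.982, 0.949 to 1.02).

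In the entry and exit routes the ratios were smaller. Sec61b and Sec61a1, subunits of the entry channel, had ratios of 1.16 and 1.04. All 8 degradation members had ratios above 1 and none reached 1.2: Edem1, which marks misfolded glycoproteins, stood at 1.16, Sel1l and Syvn1, the adaptor and the ubiquitin ligase of the main complex, at 1.14 and 1.06, and Herpud1, which helps assemble it, at 1.05. The derlins Derl1, Derl2 and Derl3 had 1.08, 1.13 and 1.13, and Selenos, a selenoprotein that binds them, had 1.05.

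The 3 sensors had ratios slightly below 1. Atf6 had 55.4 CPM in PS-MP and 60.8 CPM in control granulosa-like cells (ratio 0.911, 0.878 to 0.945), and Ern1 had 51.4 and 53.6 CPM (ratio 0.960, 0.923 to 0.998). Eif2ak3 had 24.7 CPM in PS-MP and 25.8 CPM in control cells (ratio 0.958, 0.906 to 1.01), an interval that holds 1. These are mRNA levels, and the sensors are known to be switched on by changes in the proteins, which were not measured.

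The effectors lay on both sides of 1. Xbp1 had 198 CPM in PS-MP and 171 CPM in control granulosa-like cells (ratio 1.16, 1.14 to 1.19), counted without telling the spliced form apart. Atf4, mainly controlled through translation, had 204 CPM in PS-MP and 205 CPM in control cells (ratio 0.997, 0.978 to 1.02). Ddit3 had 25.7 CPM in PS-MP and 27.4 CPM in control cells (ratio 0.939, 0.889 to 0.992), and Ppp1r15a, the phosphatase subunit that reverses the PERK signal, had 234 and 245 CPM (ratio 0.952, 0.935 to 0.970). Trib3, a target of ATF4 and CHOP, was at 0.858 CPM in PS-MP and 0.654 CPM in control cells, too low for a ratio to be read.

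The granulosa marker list (12 genes) summed to 17474 CPM in PS-MP and 18829 CPM in control granulosa-like cells, with 3 of 12 higher in PS-MP; the luteal list (12 genes) summed to 2359 and 2167 CPM, with 8 of 12 higher. The macrophage list (9 genes) summed to 18 CPM in PS-MP and 28.2 CPM in control granulosa-like cells, and the theca list (8 genes, Insl3 at 0 in both) to 623 and 670 CPM. Immediate-early and dissociation genes had a median log2 ratio of 0.08 (18 measured, 2 at least 1.2-fold higher), cytosolic heat shock genes 0.12 (10 measured, 1 higher) and dividing-cell genes 0.14. The mitochondrial share was 10.3% in PS-MP and 10.2% in control granulosa-like cells. Their part in the result was not tested.

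When the luteal-like cluster 6 of the PS-MP library was counted as granulosa-like, 1 member in place of 5 was at least 1.2-fold higher (2.94% of members and 8.2% of genes), the members' median log2 ratio was 0.05 and the Hspa5 ratio was 0.997. Ratios were then above 1 for 20 of 34 members (58.8%) and for 41.2% of genes. Luteal cells are known to arise from granulosa and theca cells after ovulation. In the counts given above these 1906 cells are left out.

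Within the granulosa-like class the 7 clusters differed in how much folding mRNA they carried and in how far the libraries were apart. The highest summed folding level was in cluster 0, led by Inhba and Cyp19a1, with 14919 CPM in PS-MP and 13230 CPM in control cells (ratio 1.13). Cluster 7, which adds mitotic genes to the same leaders, had 14302 CPM in PS-MP and 11993 CPM in control cells (ratio 1.19), and cluster 4, led by Amh, had 13655 and 12257 CPM (ratio 1.11). The dividing cluster 5 had 11631 CPM in PS-MP and 10110 CPM in control cells (ratio 1.15), and cluster 1 had 10141 and 9532 CPM (ratio 1.06). Cluster 3, led by Rnase1, H19 and Col11a1, was the lowest, with 6564 CPM in PS-MP and 5955 CPM in control cells (ratio 1.10).

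Cluster 8, led by Pcsk6 and Car4, showed no gap in the sum: 8009 CPM in PS-MP and 7963 CPM in control cells (ratio 1.01, 0.992 to 1.02). In it 1 of 33 measured members was at least 1.2-fold higher (7.85% of genes) and 1 was lower (7.74% of genes). In cluster 7, 13 of 34 were at least 1.2-fold higher (6.66% of genes), and in clusters 0, 5, 4, 3 and 1 the counts were 9 of 34 (8.72% of genes), 9 of 33 (3.4% of genes), 8 of 34 (4.47% of genes), 2 of 33 (4.89% of genes) and 0 of 34 (4.21% of genes). Lower by as much was 1 member in cluster 0 (11.7% of genes) and 0 members in clusters 7, 5, 4, 3 and 1 (13.6%, 4.94%, 5.94%, 6.99% and 6.68% of genes). Differences between clusters were not tested.

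Sdf2l1, Calr and Sec61b had intervals wholly above 1 in 7 of 7 clusters. Sdf2l1 had its widest gaps in cluster 0, with 213 CPM in PS-MP and 117 CPM in control cells, and in cluster 7, with 217 and 119 CPM (ratio 1.82 in each), and its narrowest in cluster 1, with 77.6 and 64.7 CPM (ratio 1.2). Hspa5 ranged from 0.991 in cluster 8 to 1.22 in cluster 7. Creld2 and Manf were above 1 in all 7, with their highest ratios in cluster 7 (1.44 and 1.4) and their lowest in cluster 8 (1.05 and 1.08).

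Derl3, Ero1a, Herpud1 and Selenos were above 1 in 4 of 7 clusters, and Canx and Txndc5 in 3 of 7. The Derl3 ratio was 1.6 in cluster 0 (183 CPM in PS-MP and 115 CPM in control cells) and 1.49 in cluster 7, but 0.903 in cluster 1 (281 CPM in PS-MP and 311 CPM in control cells) and 0.975 in cluster 5. Ddit3 was 0.746 in cluster 0, with 36.4 CPM in PS-MP and 48.8 CPM in control cells, and 1.16 in cluster 4, with 24.3 and 21.0 CPM. Immediate-early genes had a median log2 ratio of -0.16 in cluster 0 and 0.29 in cluster 5, where 10 of 17 were at least 1.2-fold higher. Their part in these values was not tested. Dividing-cell genes had a median log2 ratio of 0.81 in cluster 0 and -0.06 in cluster 5.

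**Figure D2:**
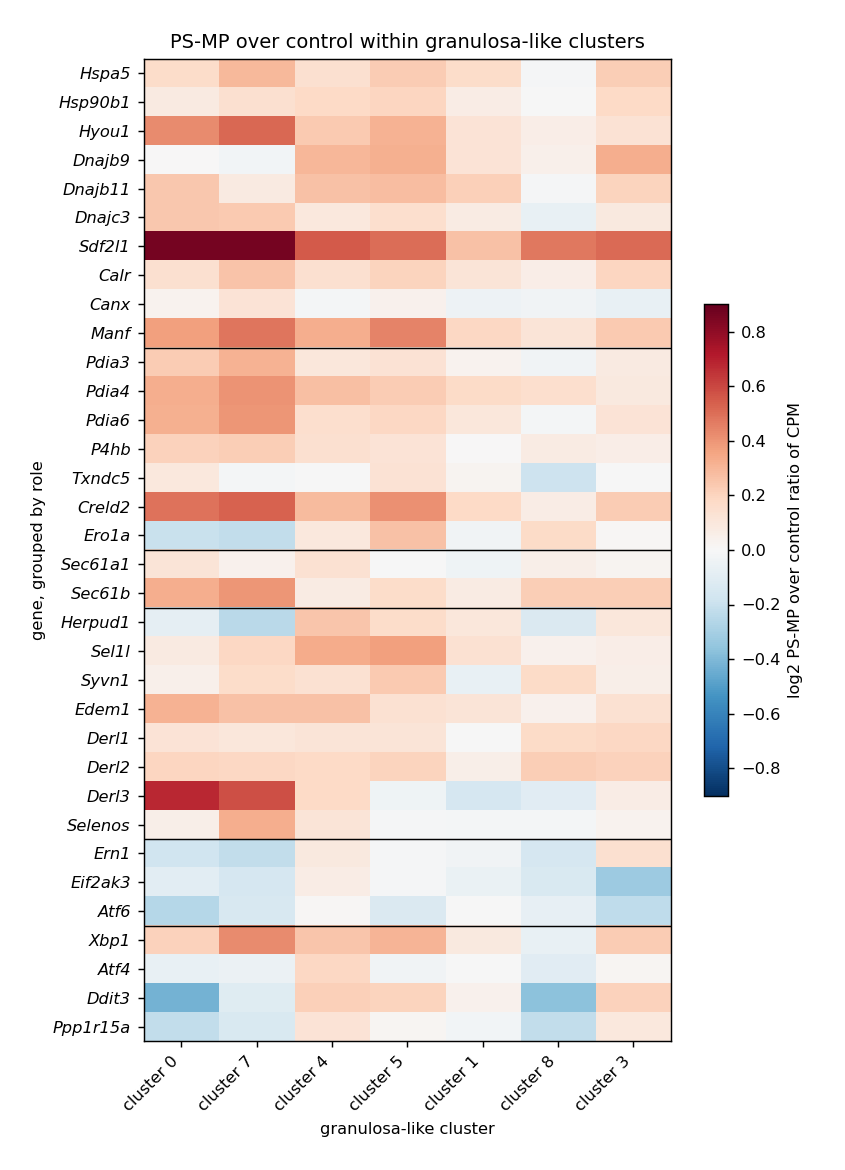
PS-MP over control log2 ratio of the members in each of the 7 granulosa-like clusters, 1 row per gene grouped by role, coloured by the ratio. Trib3 is left out. Of the 17 folding members 14 to 17 are above 1 in each cluster except cluster 8, where 9 are, and the sensors Ern1, Eif2ak3 and Atf6 are above 1 in 2, 1 and 1 of 7 clusters.

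The members with an ERSE or ERSE-II in the promoter windows shown above had ratios from 1.01 to 1.31 in granulosa-like cells, with a median of 1.13, and 11 of 11 were above 1. The members whose promoter entry held neither had ratios from 0.939 to 1.57, with a median of 1.11, and 12 of 18 measured were above 1. Of all genes measured in granulosa-like cells 43.3% were above 1. No member with a motif was a sensor or effector. Those without a motif and below 1 were Ero1a, Ern1, Eif2ak3, Atf4, Ddit3 and Ppp1r15a, so the sets with and without a motif also differ in role. The ranges overlap, and the member with the highest ratio, Sdf2l1, had neither motif. In theca-like cells 1 of 10 measured members with a motif and 5 of 17 without were above 1, with median ratios of 0.837 and 0.905.

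Other genes of the pathway had ratios nearer to 1. Of 132 listed genes 120 were measured in granulosa-like cells. The PS-MP level exceeded control by 1.2-fold or more in 4 of them (1.33% of all genes) and 1 was lower by as much (4.31% of all genes). Ratios were above 1 for 79 (43.3% of all genes), with a median log2 ratio of 0.04. Of 22 genes of the translocon and signal peptide processing 20 had ratios above 1 (median 0.10), and of 14 genes of N-glycosylation 13 did (median 0.08). The calnexin cycle and other folding genes (30 measured) had a median of 0.02, other degradation genes (19 measured) -0.02, and regulators of the stress response (18 measured) -0.02. Among 17 measured targets of ATF4 and CHOP 3 were higher (1.33% of all genes) and 1 was lower (4.31% of all genes), with a median of 0.07.

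Of these other genes the highest ratios were those of Phgdh, the first enzyme of serine synthesis, with 34.2 CPM in PS-MP and 24.0 CPM in control cells (ratio 1.43), of Fkbp11, an ER prolyl isomerase, with 22.2 and 16.7 CPM (ratio 1.33), and of Aars, the alanyl-tRNA synthetase, with 48.0 and 39.9 CPM (ratio 1.2). The lowest were Slc7a5, a transporter of large amino acids, with 29.3 CPM in PS-MP and 37.4 CPM in control cells (ratio 0.785), Map3k5, the kinase ASK1 that acts below IRE1, with 105 and 123 CPM (ratio 0.859), and Eif2ak2, the kinase PKR, with 27.8 and 32.1 CPM (ratio 0.865). Phgdh, Aars and Slc7a5 were all on the list of ATF4 and CHOP targets, and lay on both sides of 1.

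In theca-like cells most measured members had lower levels in the PS-MP library, by an amount that depended on the setting. Of 32 measured members 0 were at least 1.2-fold higher in PS-MP (7.94% of genes were) and 14 were at least 1.2-fold lower (12.8% of genes were). Ratios were below 1 for 26 of 32, and for 57.1% of genes. The median log2 ratio was -0.24 over the members, -0.27 over the folding members, -0.27 over the 6 measured sensors and effectors and -0.03 over all genes. Intervals lay wholly below 1 for 20 of 32 members, against 14.8% of all genes, and wholly above 1 for 0. The count of members at least 1.2-fold lower was 1 at a finer clustering (resolution 1.0, where 8.15% of genes were), with 994 PS-MP and 1072 control cells in the class, and 5 with called doublets kept (9.28% of genes). With cells thinned to 3500 counts it was 5 (15.6% of members and 18.1% of genes), and with at most 10% mitochondrial counts 7 (21.2% of members and 20.4% of genes), so in both of these settings the members' share was near or below that of all genes. It was 9 when scaled to the median gene (9.95% of genes). The cause was not tested, and the members' median stayed negative in each of the settings tried (-0.24 to -0.09).

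Hspa5 had 865 CPM in PS-MP and 1043 CPM in control theca-like cells (ratio 0.829, 0.797 to 0.863), Hsp90b1 1305 and 1530 CPM (ratio 0.853) and Calr 1168 and 1422 CPM (ratio 0.822). Pdia4 had 67.5 CPM in PS-MP and 96.8 CPM in control cells (ratio 0.697, 0.606 to 0.800), the lowest ratio among measured members. Sdf2l1 and Creld2, the highest in granulosa-like cells, were at 0.754 and 0.777 here. Of the 17 folding members 2 were above 1 here, Dnajb11 (ratio 1.01) and Ero1a (ratio 1.06). Both measured sensors were below 1: Ern1 had 66.5 CPM in PS-MP and 87.2 CPM in control cells (ratio 0.762) and Atf6 49.7 and 63.2 CPM (ratio 0.785). Among the effectors Ddit3 had 95.3 CPM in PS-MP and 115 CPM in control cells (ratio 0.825), and Xbp1 stood at 1.01.

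Other genes of the pathway lay near all genes in theca-like cells. Of 132 listed genes 111 were measured, 8 were at least 1.2-fold higher (7.94% of all genes) and 17 were lower by as much (12.8% of all genes). Ratios were above 1 for 45, with a median log2 ratio of -0.04, while 57.1% of all genes were below 1. Of 18 measured regulators of the stress response 15 had ratios above 1 (median 0.05), 3 were higher and 2 were lower. The medians were -0.12 for other degradation genes, -0.09 for the calnexin cycle and other folding genes, -0.06 for the translocon, -0.06 for N-glycosylation and -0.03 for targets of ATF4 and CHOP.

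Several values moved with this. The granulosa list summed to 1692 CPM in PS-MP and 2288 CPM in control theca-like cells, with 2 of 12 markers higher in PS-MP, and the theca list to 6647 and 7327 CPM, with 4 of 8 higher. Median counts per cell were 8002.5 in PS-MP and 9879 in control theca-like cells, and mitochondrial shares were 13.7% and 12.8%. Immediate-early genes had a median log2 ratio of 0.05 and cytosolic heat shock genes 0.07, with 0 of 10 heat shock genes lower. Their part in the result was not tested. Per theca-like cell the folding share was 0.335%, 0.539% and 0.884% at the 10th, 50th and 90th percentile in PS-MP and 0.387%, 0.604% and 0.986% in control.

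**Figure D3:**
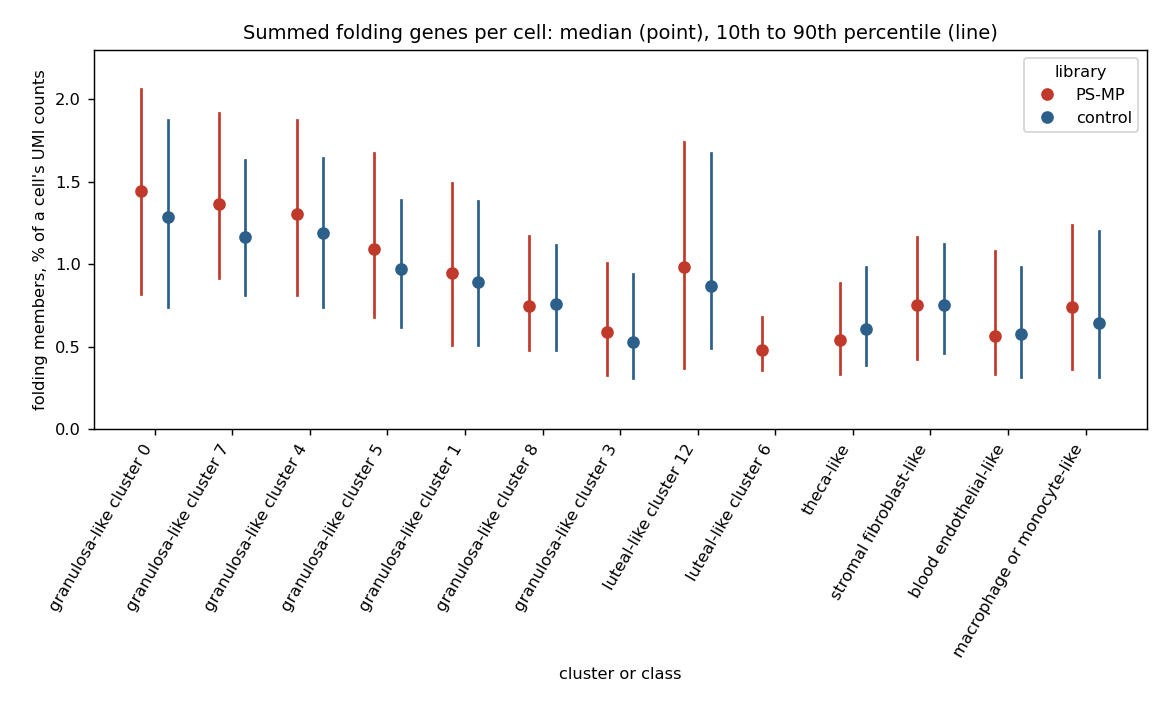
Share of each cell's counts from the 17 folding members, in percent, in the 7 granulosa-like clusters, the luteal-like clusters and 4 other classes, for PS-MP (left of each pair) and control; points are medians over cells and lines run from the 10th to the 90th percentile over cells, which are not replicates. The PS-MP median is above the control median in cluster 0 (1.44% and 1.29%) and cluster 7 (1.37% and 1.17%), level with it in cluster 8 (0.748% and 0.756%) and below it in theca-like cells (0.539% and 0.604%).

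The remaining large classes were closer to 1. In stromal fibroblast-like cells 1 of 32 measured members was at least 1.2-fold higher (4.3% of genes) and 0 were lower (5.6% of genes), with a median log2 ratio of 0.02; the 1 was Sdf2l1, with 30.6 CPM in PS-MP and 24.9 CPM in control cells (ratio 1.23, 1.08 to 1.4). Their effectors summed to 1018 CPM in PS-MP and 1111 CPM in control cells (ratio 0.916), led by Ppp1r15a with 528 and 602 CPM. In macrophage or monocyte-like cells 4 of 34 were higher (13.7% of genes) and 0 lower (10.6% of genes), with a median of 0.04. The share of stromal members called, and of macrophage members called higher, is near or below that of all genes. Counting intervals lay wholly above 1 for 13 of 32 stromal members (40.6%), against 15.2% of all genes. They lay wholly below 1 for 7 (21.9%), against 21.6% of all genes. In macrophage or monocyte-like cells they lay wholly above 1 for 6 of 34 (17.6%, and 11.7% of genes) and wholly below 1 for 1 (2.94%, and 11.1% of genes).

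In blood endothelial-like cells members lay on both sides of 1. Of 33 measured members 7 were at least 1.2-fold higher (12.6% of genes) and 5 lower (17.9% of genes), with a median log2 ratio of 0.03. Counting intervals lay wholly above 1 for 7 of 33 (21.2%, and 8.8% of genes) and wholly below 1 for 4 (12.1%, and 11.6% of genes). Hspa5 had 1254 CPM in PS-MP and 1032 CPM in control cells (ratio 1.21, 1.15 to 1.28) and Manf 251 and 189 CPM (ratio 1.32, 1.18 to 1.49). Ppp1r15a had 339 CPM in PS-MP and 471 CPM in control cells (ratio 0.719, 0.657 to 0.787). In the same cells 8 of 19 immediate-early genes were lower, with a median log2 ratio of -0.23, 4 of 10 cytosolic heat shock genes were higher (median 0.19) and 5 of 8 dividing-cell genes were higher (median 0.32). The lymphatic endothelial list (6 genes) summed to 326 CPM in PS-MP and 628 CPM in control cells, with 1 of 6 higher in PS-MP, and the blood endothelial list (8 genes) to 6484 and 6704 CPM, with 3 of 8 higher. The luteal list (12 genes) summed to 1196 CPM in PS-MP and 909 CPM in control cells, with 9 of 12 higher. Their part in this was not tested.

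Across cell types, with both libraries set side by side, 10 of 17 folding members had their highest level in granulosa-like cells in both libraries: Hspa5, Hsp90b1, Hyou1, Canx, Manf, Pdia3, Pdia4, Pdia6, Txndc5 and Creld2. Calr was highest in luteal-like cluster 12 and Dnajb9 in theca-like cells. These levels are compared within each gene, among classes of at least 50 cells, which were 9 in PS-MP and 11 in control. Derl3 had 223 CPM in PS-MP and 198 CPM in control granulosa-like cells, against 8.72 and 13.0 CPM in theca-like cells, 14.3 and 9.99 CPM in stromal cells, 35.2 and 28.0 CPM in endothelial cells and 88.7 and 83.3 CPM in oocyte-like cells. Derl3 was thus 6.34 times the median class in PS-MP and 6.46 times in control. Sdf2l1 was highest in macrophage or monocyte-like cells, with 178 CPM in PS-MP and 162 CPM in control cells. Its PS-MP over control ratio was 1.57 in granulosa-like cells, and further from 1 in the few oocyte-like cells.

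Herpud1, Xbp1 and Edem1 had their highest control levels in cluster 17, a small cluster led by Siglech and Ccr9 (21 PS-MP and 71 control cells). Herpud1 had 792 CPM in PS-MP and 1062 CPM in control cells of that cluster, against 106 and 100.5 CPM in granulosa-like cells, and Xbp1 had 542 and 723 CPM against 198 and 171 CPM. Edem1 had 183 CPM in PS-MP and 201 CPM in control cells of cluster 17, and 137 and 140 CPM in macrophage or monocyte-like cells. The cluster took another name at a finer clustering, so it is called here by its number and leading genes.

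The effectors Ddit3 and Ppp1r15a had other peaks. Ddit3 was highest in theca-like cells, with 95.3 CPM in PS-MP and 115 CPM in control cells. It had 43.4 CPM in PS-MP and 49.9 CPM in control stromal cells, 29.1 and 25.2 CPM in macrophage or monocyte-like cells and 20.8 and 30 CPM in endothelial cells. Ppp1r15a was highest in smooth muscle or pericyte-like cells, with 761 CPM in PS-MP and 750 CPM in control cells, then in stromal cells. Ero1a had 82.1 CPM in PS-MP and 108 CPM in control oocyte-like cells, its highest control level, and 84.8 CPM in PS-MP cells of cluster 6, its highest PS-MP level. Trib3 was at or below 5.33 CPM in each class of at least 50 cells.

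**Figure D4:**
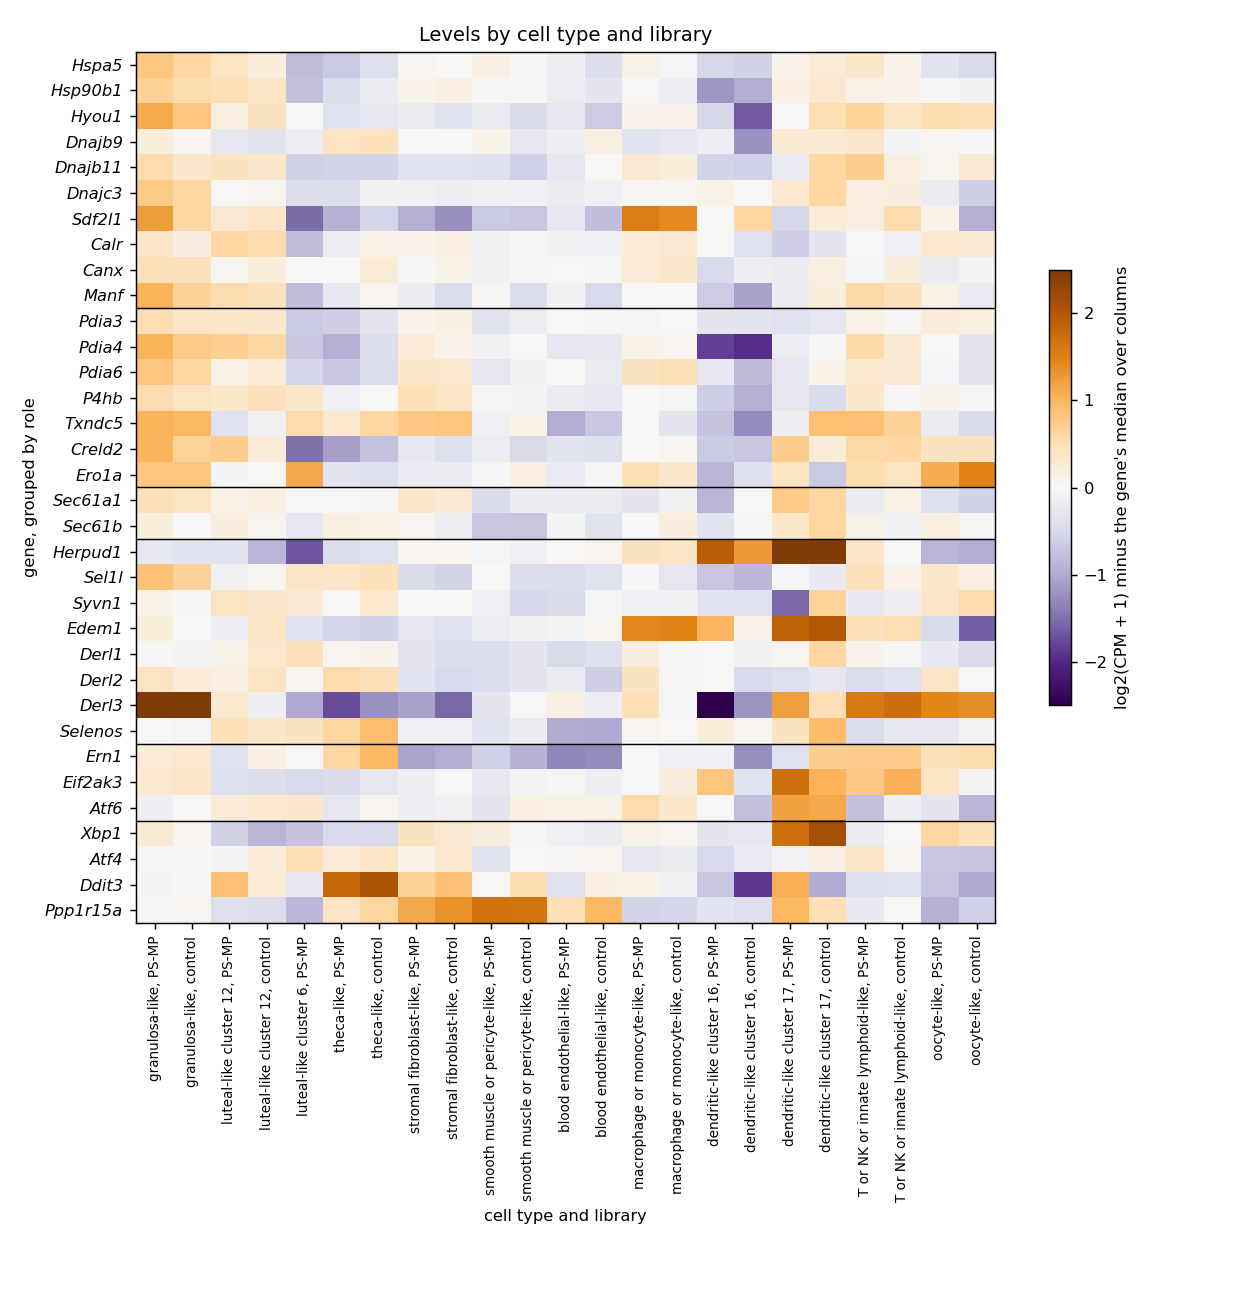
Level of each member by cell type in PS-MP and control, as log2(CPM + 1) minus the gene's median over the columns, on a colour scale that ends at 2.5 in either direction; each class has its PS-MP column left of its control column, and Trib3 is left out. Derl3 stands out in granulosa-like cells, Ddit3 in theca-like cells and Ppp1r15a in pericyte-like cells.

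The luteal-like cluster 6 could be compared only within the PS-MP library. Against granulosa-like cells of that library, 25 of 34 measured members were at least 1.2-fold lower (38.7% of genes) and 5 higher (28.6% of genes), with a median log2 ratio of -0.67 over the members and -0.09 over all genes. Derl3 had 15.2 CPM in cluster 6 and 223 CPM in granulosa-like cells (ratio 0.0680), Sdf2l1 20.1 and 143 CPM (ratio 0.141), Creld2 28.6 and 172 CPM (ratio 0.166) and Hspa5 784 and 2417 CPM (ratio 0.324). The 5 higher members were Atf4 (ratio 1.43), Atf6 (1.38), Derl1 (1.36), Selenos (1.32) and Ero1a (1.27). Sdf2l1, Creld2, Manf and Pdia4, among the highest PS-MP over control ratios in granulosa-like cells, were among the lowest in this comparison. Hyou1, also among the highest there, stood at 0.458 here, and Derl3, the lowest here, at 1.13 there. Both comparisons share the PS-MP granulosa-like cells. Higher counts in them raise the ratio between libraries and lower the ratio given here, so an inverse pattern is partly built in.

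Against the other luteal-like cluster (cluster 12, led by Akr1c18 and Ptgfr) in the PS-MP library, 16 of 33 members were at least 1.2-fold lower in cluster 6 (25.1% of genes) and 6 higher (38% of genes), with a median log2 ratio of -0.20 over the members and 0.09 over all genes. Cluster 12 itself, with 131 PS-MP and 228 control cells, had 10020 CPM of folding members in PS-MP and 9511 CPM in control cells (ratio 1.05, 1.04 to 1.07).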

How the data were processed

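For each of the 2 libraries the authors deposited a matrix of unnormalized molecule counts (whole numbers, genes by cells). The submitters' processing notes name GRCm39 and Seurat without giving a role; for the aligner, the counting tool and the annotation, the entry is: not given in the sources used here. Cells were kept with at least 500 genes and at most 25% mitochondrial counts, and doublets called by Scrublet in scanpy 1.11.5 (expected rate 0.05) were removed. Both libraries were clustered jointly on 2000 variable genes without the members, with 30 principal components, 15 neighbours and Leiden (leidenalg 0.10.2) at resolution 0.5, seed 1, with no batch correction. A cluster took a name where at least 3 markers reached 20 CPM and its score was at least 0.15; this scoring rule was set after the files were read. Counts were summed per class and library. Genes at 20 CPM or more in 1 library were compared, and called at a 1.2-fold difference; list medians used log2(CPM + 1), which understates the change of low genes. Members were called between libraries in classes with at least 200 cells per library; smaller classes are given as values, apart from the comparison with cluster 12 within the PS-MP library. Levels were ranked over classes of at least 50 cells, which leaves out the PS-MP cells of cluster 17. Intervals came from scipy 1.17.1 and cover counting error only. Calls were tried on simulated granulosa-like counts that held counting error only. That trial covers no spread between mice or libraries and no smaller class. The members and lists were chosen with earlier results of these data known. Values are given for the 6 highest and 4 lowest ratios in granulosa-like cells, the 8 members with the widest spread between classes, the sensors and effectors, and the 3 highest and 3 lowest other pathway genes. Alternatives covered filters, scaling, depth, clustering and class boundaries. Promoter sequences are RefSeq's, build GRCm38.p6; no coordinates came from the deposited files.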

Additional observations from a re-analysis of the deposited data

Results flagged for a closer look

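For 16 members the ratio of PS-MP over control was above 1 in granulosa-like cells and below 1 in theca-like cells, with both counting intervals clear of 1. Of the members measured in both classes 15 of 32 met this rule (46.9%), against 147 of 6216 genes (2.36%). The theca-like levels behind it varied with the setting. The difference between the cell types was not tested, since each rests on the same 2 libraries. Among chaperones the theca-like ratios were 0.829 for Hspa5, 0.853 for Hsp90b1, 0.798 for Dnajc3, 0.754 for Sdf2l1, 0.822 for Calr, 0.845 for Canx and 0.823 for Manf. Among disulphide genes they were 0.807 for Pdia3, 0.697 for Pdia4, 0.846 for Pdia6, 0.922 for P4hb, 0.797 for Txndc5 and 0.777 for Creld2. Among degradation genes they were 0.804 for Syvn1, 0.672 for Derl3, which was under 20 CPM there and had a ratio of 2.84 with at most 10% mitochondrial counts, and 0.815 for Selenos.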

How the results depend on the processing

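No paired analysis was possible because each group has 1 library, and for the same reason no replicate could be left out. In granulosa-like cells the members' median log2 ratio ran from 0.05 to 0.17 and that of the sensors and effectors from -0.10 to -0.04 over the alternatives. With the luteal-like cluster of the PS-MP library counted as granulosa-like, 1 member was at least 1.2-fold higher, the median was 0.054 over members and 0.046 over folding members, and the Hspa5 ratio was 0.997; the cause was not tested beyond the added cells. The number of theca-like members at least 1.2-fold lower was 14 as reported (12.8% of genes), 7 with at most 10% mitochondrial counts (20.4%), 5 with doublets kept (9.28%), 9 with members allowed among the variable genes (11.1%), 1 at resolution 1.0 (8.15%), 5 with cells thinned to 3500 counts (18.1%) and 9 when scaled to the median gene (9.95%); the cause was not tested. With at most 10% mitochondrial counts, 5 of 33 theca-like members were at least 1.2-fold higher (15.2%), against 18.6% of genes. Where members were allowed among the variable genes, 0 of them were chosen, so that setting cannot show what members do to the clusters. The count of theca-like members at least 1.2-fold lower under each alternative, and leaving out granulosa-like cluster 1, were added after seeing the data. The members' median ran from -0.03 to 0.05 in endothelial and from -0.03 to 0.08 in macrophage or monocyte-like cells. Mice pooled into 1 library, and few cells in the theca-like class, limit precision.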

Other observations

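Small classes held too few cells for a comparison of the kind above and are given as values. Oocyte-like cells (93 PS-MP and 76 control cells) had 65.2 CPM of Sdf2l1 in PS-MP and 30.8 CPM in control cells (ratio 2.12, 1.55 to 2.91), and 35.0 and 15.4 CPM of Edem1. Ero1a ran the other way in these cells, with 82.1 CPM in PS-MP and 108 CPM in control cells (ratio 0.762). In luteal-like cluster 12 Herpud1 had 101 CPM in PS-MP and 69.1 CPM in control cells (ratio 1.46, 1.2 to 1.76) and Ddit3 had 51.1 and 32.3 CPM (ratio 1.59), while Ern1 had 34.1 and 48.2 CPM (ratio 0.707). Median counts per oocyte-like cell were 15442 in PS-MP and 22942.5 in control, and the part of depth was not tested.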
